A study of Mus musculus with 17 samples.

Results

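The expression of 42 homologous recombination and damage checkpoint genes was analysed in erythroid blasts of TgSpi1 mice. They were chosen by gene name, with earlier results of these data known, and fell into 9 roles. All 42 were found once each among the 26029 genes of the model 1 table and among the 24659 genes of the model 2 table. All 42 passed the filter on low counts in each comparison.

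Homologous recombination copies an intact sister chromatid to repair a broken one. The ends are resected by MRE11-RAD50-NBN, CtIP, EXO1 and DNA2, the single strand is coated by RPA, BRCA2 acts with PALB2 and BRCA1 on the coated strand so that it can invade the sister, and helicases and nucleases take apart the joined molecules. ATR and ATM sense the lesion and act through CHK1 and CHK2 on the cell cycle. Fanconi anaemia proteins act in front of this pathway at crosslinked DNA, and several recombination genes are themselves Fanconi anaemia genes.

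All 17 mice carried the Spi1 transgene. The study describes that it causes an erythroid preleukaemic disorder, which rarely turns into leukaemia spontaneously. RNA was sequenced from blasts kept in culture with EPO and diluted before RNA extraction, with 1 library per mouse, named here by stage and mouse number as in its title. The age and sex of the mice were not given in the sources used here. Model 1 (strain DBA2JxFVB/N) held preleukaemic blasts of 4 TgSpi1FA+/+ mice (preleukemic_138, preleukemic_445, preleukemic_451 and preleukemic_479), preleukaemic blasts of 3 TgSpi1FA-/- mice (preleukemic_40, preleukemic_77 and preleukemic_224) and leukaemic blasts of 3 TgSpi1FA-/- mice (leukemic_26, leukemic_28 and leukemic_39). FA-/- mice lack Fanca in every cell, which encodes a subunit of the Fanconi anaemia core complex, and there was no leukaemic TgSpi1FA+/+ group in model 1. Model 2 (the blood transfusion model, strain DBA2J) held blasts of 4 preleukaemic (preleukemic_633, preleukemic_663, preleukemic_812 and preleukemic_837) and 3 leukaemic TgSpi1FA+/+ mice (leukemic_601, leukemic_606 and leukemic_921). Library preparation used 400 ng of RNA and 8 min of fragmentation in model 1 but 300 ng and 2 min in model 2. Model, strain, Fanca genotype and library protocol therefore cannot be told apart between the leukaemic groups. The study reports a Kit mutation in leukemic_26 and an Nras mutation in leukemic_28 and leukemic_39. It describes activating Kit mutations in the leukaemic cells that emerge in model 2. The part of these mutations was not tested. Levels are given as CPM, the count scaled to the TMM-adjusted library size, and the values of a group follow the order in which its libraries are listed here. Each mouse has 1 library in each table used, and p-values measure the spread between these libraries.

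Total counts were 29964576 to 38217654 per library in model 1 and 37726753 to 40514205 in model 2. Fanca was at 0.615 to 2.30 CPM in the 6 TgSpi1FA-/- libraries and at 28.1 to 83.5 CPM in the 11 TgSpi1FA+/+ libraries. The source names and the column names of the model 1 table called preleukemic_40, preleukemic_77 and preleukemic_224 leukaemic, whereas their titles and cell type labels, followed here, call the same libraries preleukaemic. The first and second comparisons and the interaction rest on this choice. Libraries preleukemic_445 and preleukemic_479 were closer to each other than any other pair (chi-square per degree of freedom over genes of 8.53 against 114 to 372 in the other 11 pairs of 1 group). A second deposited table holds other counts for 7 mice of model 1 (the leukaemic TgSpi1FA-/- and preleukaemic TgSpi1FA+/+ groups), with totals of 35497594 to 171572736, and how it was made is not given in the sources used here. There the same pair had 350, again the lowest, against 393 to 742 in the other pairs, on a scale that grows with depth. Results with both counted as 1 library are given where they differ. Erythroid markers summed to 2634 to 11030 CPM over the libraries, and B cell markers to at most 0.548 CPM.

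The RPA subunits, which coat single-stranded DNA, had the highest levels per length as means over the 17 libraries. Rpa1 was at 60.1 CPM per kb of exon, Rpa3 at 54.7 and Rpa2 at 49.9. The order varied between groups. Rpa3 had group means of 35.3 to 39.6 CPM per kb in model 1 and of 55.9 and 111 in model 2, and in preleukaemic TgSpi1FA-/- cells Nbn (50.6) lay above Rpa2 (48.4) and Rpa3 (37.7). The lowest were Rmi2 (0.705 CPM per kb), Fan1 (1.21) and Rad51c (1.38).

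The question of the first comparison was how TgSpi1FA-/- blasts differed between the leukaemic and the preleukaemic stage. Of the 42 genes, 9 were lower in leukaemic TgSpi1FA-/- cells (edgeR quasi-likelihood test, thresholds of 0.05 for the Benjamini-Hochberg adjusted p and 1.5 for the fold change) and 0 were higher. These 9 genes were Wrn, Brip1, Rad54l, Brca2, Atr, Nbn, Chek2, Rad50 and Ercc4, and they came from 6 of the 9 roles. They made 21.4% of the 42, and 6.49% of the 13393 genes tested were lower at the same thresholds, while 6.82% were higher. The 42 genes were chosen with earlier results of these data known, so these shares are not an independent test of an excess. The log2 fold change was below 0 for 31 of the 42 genes, with a median of -0.28, against a median of -0.00 over all genes tested. At an unadjusted p under 0.05, 14 of the 42 were lower and 2 higher (Exo1 and Ube2t), when 16.1% and 16.3% of all genes were. The libraries of both stages did not overlap for 17 genes on the lower side and for 5 on the higher side, against 19.3% and 19.4% of all genes. In a bulk library, fewer cells of a type and less RNA per cell cannot be told apart. DESeq2 gave 10 lower genes and 1 higher gene, with Rad51b, Rad51d and Ube2t added and Ercc4 lost. Of all 25757 genes with a DESeq2 p-value, including those below the filter on low counts, 4.69% were lower and 7.35% higher. Leaving out 1 mouse gave 2 genes without preleukemic_224 (Wrn and Brip1), 3 without leukemic_28, 4 without preleukemic_40, 4 without leukemic_39, 6 without preleukemic_77 and 6 without leukemic_26, and Wrn and Brip1 passed in all 6 of these fits. Counting preleukemic_445 and preleukemic_479 as 1 library gave 6.

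**Figure D1:**
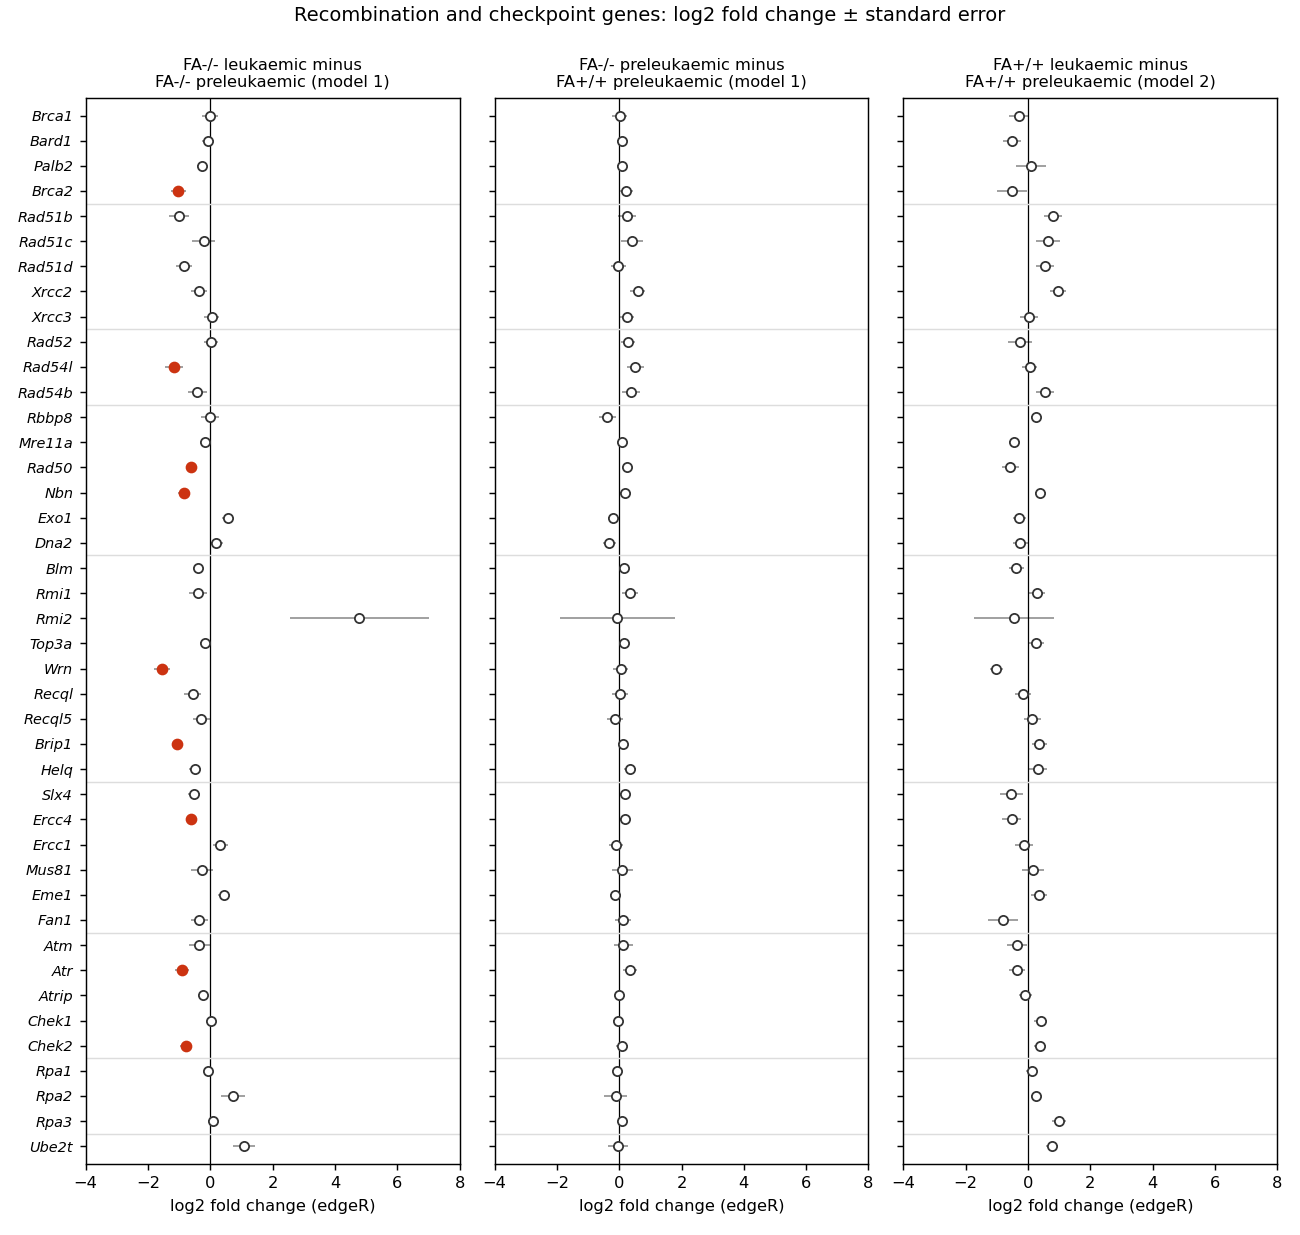
Log2 fold change (edgeR, x axis) of each of the 42 genes (y axis, grouped by role between grey lines) in the comparisons of both stages in TgSpi1FA-/- cells, of both genotypes at the preleukaemic stage, and of both stages in model 2. Points are estimates, whiskers are standard errors, and filled red points passed an adjusted p of 0.05 and a fold change of 1.5. The 9 filled points all lie left of 0 in the first panel, and the other panels hold 0.

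**Figure D2:**
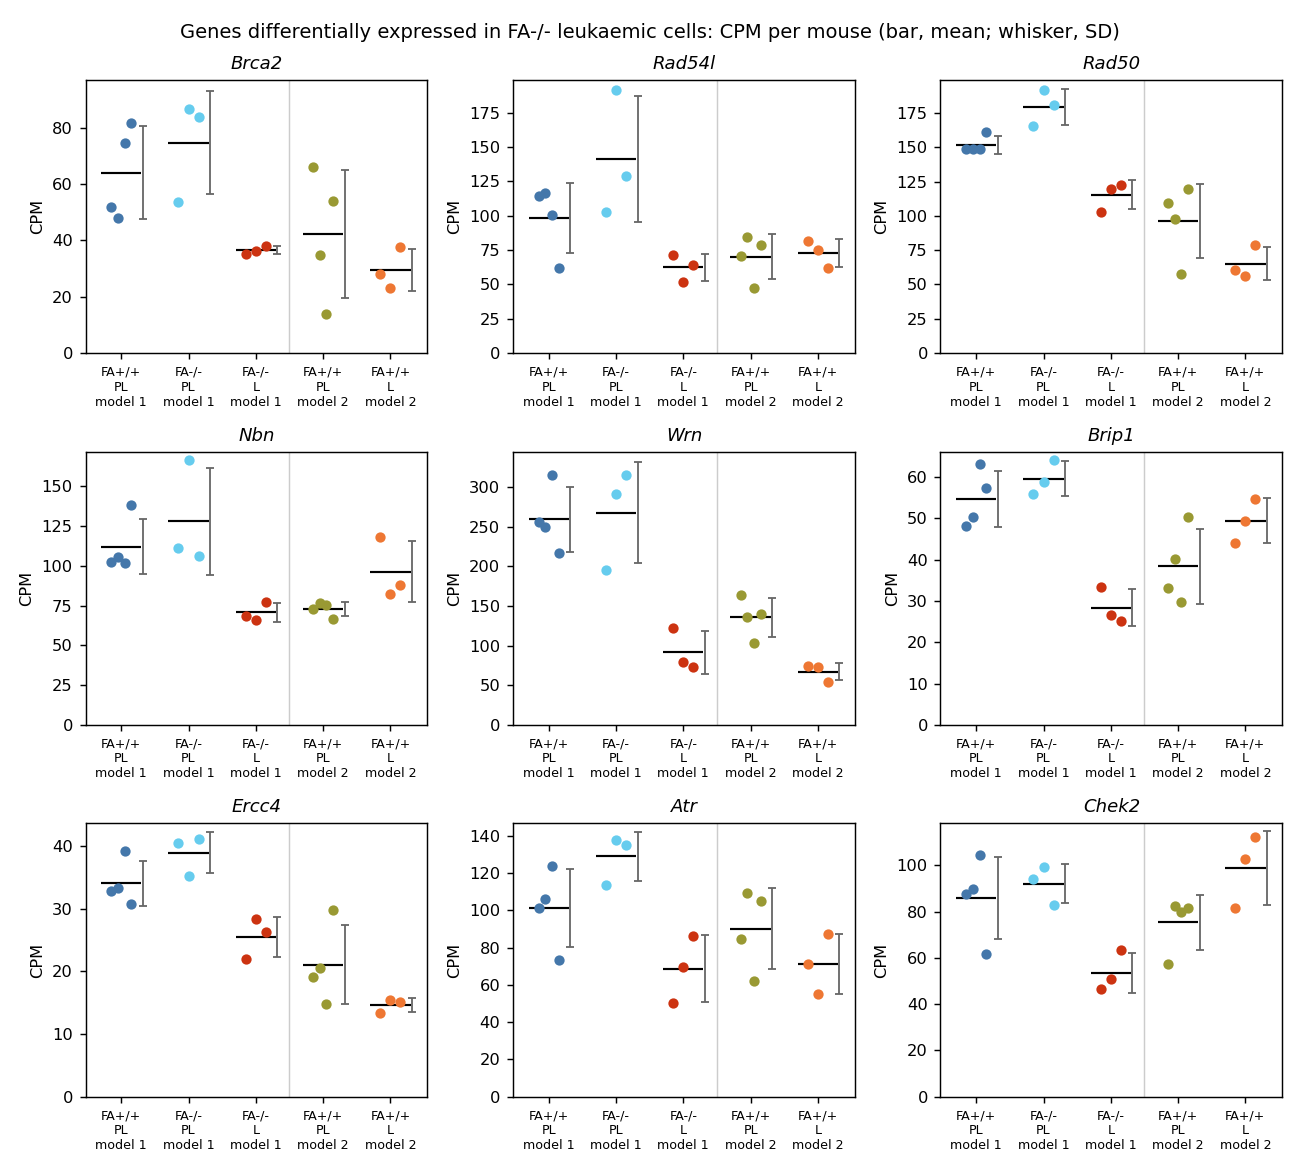
CPM of the 9 genes that were lower in leukaemic TgSpi1FA-/- cells, with 1 point per mouse, the group mean as a bar and the SD as a whisker (PL, preleukaemic, L, leukaemic, FA+/+ and FA-/-, Fanca genotype). In each panel the 3 red points of model 1 lie below the 3 light blue points, and in model 2 the leukaemic points lie below all preleukaemic ones for Wrn alone.

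Promoter sequences (RefSeq, GRCm38.p6, 250 bases before to 50 after the start) were read for 32 of the 42 genes, including 6 of the 9 that fell in leukaemic TgSpi1FA-/- cells. E2F factors drive many replication and repair genes, and an E2F-type octamer (TTTGGCGC, TTTCCCGC, TTTGCCGC or TTTCGCGC, either strand) was found for 5 of the 32 (15.6%) and for 2.6% of 27025 genes. It was found in a window of Brca2, Chek2, Bard1, Rad51c and Rmi1, the last 2 of which have 2 windows each. The pentamer CCAAT was found for 62.5% against 41.1% and TTTGAA, which occurs in cell cycle elements, for 9.38% against 20.2%, each on either strand. Shown are plus-strand bases before the start of Brca2 (chr5:150522371-150522610) and of Chek2 (chr5:110839733-110839972), the genes of the 9 in which an octamer was found. The last 10 bases before the start are left out. These RefSeq starts differ from the gene positions given below, which came from GENCODE. Capitals mark the octamer, which begins 168 bases before the start in Brca2 and 152 bases before it in Chek2, and it overlaps none of the other motifs searched.
Brca2: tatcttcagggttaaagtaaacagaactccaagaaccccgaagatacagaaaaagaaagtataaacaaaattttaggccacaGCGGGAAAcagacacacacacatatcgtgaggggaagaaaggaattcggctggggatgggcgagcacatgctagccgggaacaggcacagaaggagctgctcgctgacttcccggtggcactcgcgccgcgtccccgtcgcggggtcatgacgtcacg
Chek2: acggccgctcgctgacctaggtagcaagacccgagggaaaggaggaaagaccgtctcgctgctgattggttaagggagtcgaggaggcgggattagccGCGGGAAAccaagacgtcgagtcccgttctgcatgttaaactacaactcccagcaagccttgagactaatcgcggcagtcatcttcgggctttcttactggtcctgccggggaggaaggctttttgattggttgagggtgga
Both genes fell in leukaemic TgSpi1FA-/- cells, whereas Bard1, Rad51c and Rmi1 did not pass, with log2 fold changes of -0.06, -0.22 and -0.40. No octamer was found in the windows of Brip1, Atr, Rad54l and Ercc4. A match describes the letters in the window and is not a measured binding site.

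Wrn encodes a RecQ helicase and exonuclease that is lost in Werner syndrome. Wrn (ENSMUSG00000031583, chr8:33234384-33385527) was at 316, 195 and 291 CPM in preleukaemic and at 122, 79.4 and 72.7 CPM in leukaemic TgSpi1FA-/- cells. All 3 leukaemic libraries were below all 7 preleukaemic libraries of model 1, since TgSpi1FA+/+ preleukaemic cells had 217, 256, 315 and 249 CPM. In the second table leukemic_26 was at 195.5 CPM, above preleukemic_445 at 175.0 CPM, so that those groups overlapped. The log2 fold change between the stages of TgSpi1FA-/- cells was -1.55 ± 0.25 (SE, edgeR adjusted p = 0.01). It was the largest decrease of the 42 genes. In model 2 Wrn was at 164, 136, 104 and 139 CPM in preleukaemic and 74.6, 72.7 and 54.4 CPM in leukaemic cells, again without overlap. The log2 fold change there was -1.01 ± 0.22 with an adjusted p of 0.162 by edgeR and of 0.0246 by DESeq2. Of the genes within 1 Mb of Wrn, looked at after its values were seen, 7 of 11 had a difference above 0 between the stages of TgSpi1FA-/- cells, with a median of 0.07 on the log2 scale, while Wrn had -1.55.

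Brip1 (FANCJ), a helicase that binds BRCA1 and is itself a Fanconi anaemia gene, was the other gene that passed whichever mouse was left out. Brip1 (ENSMUSG00000034329, chr11:86058138-86201193) had 64.2, 55.8 and 58.7 CPM in preleukaemic and 33.4, 26.7 and 25.04 CPM in leukaemic TgSpi1FA-/- cells, and 57.3, 48.2, 63.2 and 50.3 CPM in preleukaemic TgSpi1FA+/+ cells. The 3 leukaemic libraries were again below the 7 others of model 1. The log2 fold change between the stages was -1.07 ± 0.17 (SE, edgeR adjusted p = 0.00866). In model 2 the values ran the other way, with 33.3, 40.1, 29.8 and 50.3 CPM before and 43.9, 49.4 and 54.8 CPM in leukaemic cells, which overlapped (log2 fold change 0.36 ± 0.23, edgeR adjusted p = 0.416).

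The other helicases and the dissolution complex, which separates double Holliday junctions, were BLM, TOP3A, RMI1, RMI2, RECQL, RECQL5 and HELQ. Blm, the gene of Bloom syndrome and the highest of them in CPM per kb of exon, had 239, 261, 274 and 259 CPM in preleukaemic TgSpi1FA+/+ cells, 331, 233 and 298 CPM in preleukaemic and 204, 223 and 233 CPM in leukaemic TgSpi1FA-/- cells. The highest leukaemic library lay just below the lowest preleukaemic library, and the log2 fold change of -0.38 ± 0.14 had an edgeR adjusted p of 0.091. In model 2 Blm had 183, 140.2, 154 and 160.02 CPM in preleukaemic and 167, 109 and 94.9 CPM in leukaemic cells. Top3a, Rmi1, Recql, Recql5 and Helq had log2 fold changes between -0.57 (Recql) and -0.17 (Top3a) in leukaemic TgSpi1FA-/- cells, and none of them passed.

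Rmi2, the small partner of RMI1, stood apart from the other 41 genes. It was at 2.13, 0, 0 and 0 CPM in preleukaemic TgSpi1FA+/+ cells, at 0.518, 0 and 1.02 CPM in preleukaemic TgSpi1FA-/- cells and at 8.66, 12.9 and 20.9 CPM in leukaemic TgSpi1FA-/- cells. All 3 leukaemic libraries held 316 to 823 counts, and the 7 preleukaemic ones held 0 to 75. The fitted log2 fold change of 4.77 ± 2.23 had an edgeR adjusted p of 0.172 and a DESeq2 adjusted p of 0.208, and it did not pass. In model 2 Rmi2 was at 2.12, 1.92, 0.267 and 0.692 CPM in preleukaemic and 1.49, 0 and 1.28 CPM in leukaemic cells, which overlapped. Of its 14 neighbours within 1 Mb, 9 were above 0 with a median difference of 0.12 on the log2 scale between the stages of TgSpi1FA-/- cells, against 3.91 for Rmi2. For all neighbour differences 0.5 CPM was added before the log, so that 3.91 is not the fitted 4.77.

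Among the BRCA mediators, which prepare the resected strand for invasion, Brca2 fell and the other 3 did not pass. Brca2 (ENSMUSG00000041147, chr5:150522630-150570329) had 83.7, 53.5 and 86.8 CPM in preleukaemic and 35.3, 36.4 and 38.2 CPM in leukaemic TgSpi1FA-/- cells, and 81.6, 51.8, 74.7 and 48.04 CPM in preleukaemic TgSpi1FA+/+ cells. The leukaemic values lay within 3 CPM of each other and below each preleukaemic library (log2 fold change -1.03 ± 0.25, edgeR adjusted p = 0.0303), while in the second table leukemic_26 (56.4 CPM) lay above preleukemic_451 (53.3 CPM). The call held in 1 of the 6 fits that left out a mouse. In model 2 the preleukaemic values of 65.9, 34.9, 14.02 and 53.96 CPM spanned the leukaemic ones of 28.04, 22.9 and 37.6 CPM. Brca1, the highest mediator in CPM per kb of exon, had 186, 104, 99.5 and 107 CPM in preleukaemic TgSpi1FA+/+ cells, 139, 110.04 and 129 CPM in preleukaemic and 95.03, 131 and 146 CPM in leukaemic TgSpi1FA-/- cells. These overlapped, with a log2 fold change of -0.02 ± 0.26 between the stages (edgeR adjusted p = 0.967). In model 2 Brca1 had 118, 63.6, 43.4 and 76.4 CPM before and 65.7, 63.2 and 56.1 CPM in leukaemic cells. Bard1, the partner of BRCA1, and Palb2, which links BRCA1 with BRCA2, had log2 fold changes of -0.06 and -0.27 in TgSpi1FA-/- cells.

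Rad54l, a motor protein that remodels DNA during strand invasion, also fell. Rad54l (ENSMUSG00000028702, chr4:116094264-116123690) had 129, 103 and 192 CPM in preleukaemic and 71.4, 51.8 and 64.2 CPM in leukaemic TgSpi1FA-/- cells (log2 fold change -1.18 ± 0.29, edgeR adjusted p = 0.0309). The call held in 2 of the 6 fits that left out a mouse (edgeR adjusted p up to 0.113). Preleukaemic TgSpi1FA+/+ cells had 61.8, 115, 101 and 116 CPM, so that preleukemic_138 was within the leukaemic range. In model 2 the values were 70.4, 84.2, 47.3 and 78.7 CPM in preleukaemic and 81.8, 74.9 and 62.1 CPM in leukaemic cells. Rad52, a strand-annealing protein, and Rad54b had log2 fold changes of 0.02 and -0.42 in TgSpi1FA-/- cells.

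The genes of end resection did not move together. Nbn (ENSMUSG00000028224, chr4:15957925-15992589), the regulatory subunit of the MRE11 complex, had 106, 111 and 167 CPM in preleukaemic and 68.4, 66.04 and 77.5 CPM in leukaemic TgSpi1FA-/- cells. Preleukaemic TgSpi1FA+/+ cells had 138.03, 103, 102 and 106 CPM. The 3 leukaemic libraries were below the 7 others (log2 fold change -0.86 ± 0.20, edgeR adjusted p = 0.0261), while in the second table leukemic_39 (57.3 CPM) lay above preleukemic_451 (43.7 CPM). The Nbn call held in 3 of the 6 fits that left out a mouse (edgeR adjusted p up to 0.0937) and was lost with the compared groups alone. In model 2 Nbn was at 73.03, 76.7, 75.3 and 66.2 CPM in preleukaemic and at 118, 82.5 and 88.1 CPM in leukaemic cells, where the leukaemic libraries were all above the preleukaemic ones. Rad50 (ENSMUSG00000020380, chr11:53649519-53707319), the ATPase of the complex, had 181, 166 and 192 CPM in preleukaemic and 103, 119.8 and 123 CPM in leukaemic TgSpi1FA-/- cells (log2 fold change -0.64 ± 0.11, edgeR adjusted p = 0.0116). Its call held in 4 of the 6 fits that left out a mouse. Preleukaemic TgSpi1FA+/+ cells had 161, 149, 149 and 149 CPM, between the other groups and without overlap. In model 2 Rad50 had 109.7, 98.1, 57.9 and 119.8 CPM in preleukaemic and 60.5, 56.00 and 78.96 CPM in leukaemic cells, which overlapped. Mre11a, the nuclease of the same complex, was at 113 to 142 CPM in the 7 preleukaemic libraries of model 1 and at 104 to 137 CPM in the leukaemic ones, with a log2 fold change of -0.18.

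Of the long-range resection nucleases, Dna2 had 216, 199, 119.9 and 195 CPM in preleukaemic TgSpi1FA+/+ cells, 137.6, 172 and 131 CPM in preleukaemic and 169.98, 161 and 172 CPM in leukaemic TgSpi1FA-/- cells. These overlapped (log2 fold change 0.19 ± 0.21, edgeR adjusted p = 0.566). In model 2 Dna2 had 137, 92.3, 94.8 and 69.2 CPM before and 87.9, 76.99 and 84.4 CPM in leukaemic cells. Exo1 had 92.6, 91.4 and 56.5 CPM in preleukaemic and 106, 124 and 122 CPM in leukaemic TgSpi1FA-/- cells, with the leukaemic libraries above the others (log2 fold change 0.55 ± 0.18, edgeR adjusted p = 0.0765). Rbbp8, which encodes CtIP, had a log2 fold change of -0.02.

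Both damage-signalling branches held a gene that fell. Atr (ENSMUSG00000032409, chr9:95857597-95951781), the kinase that answers to single-stranded DNA, had 135, 114 and 137.9 CPM in preleukaemic and 50.5, 69.8 and 86.1 CPM in leukaemic TgSpi1FA-/- cells, without overlap. The log2 fold change was -0.91 ± 0.23 (edgeR adjusted p = 0.0335), and the call held in 1 of the 6 fits that left out a mouse. It was also lost with preleukemic_445 and preleukemic_479 counted as 1 library and with the compared groups alone. Preleukaemic TgSpi1FA+/+ cells had 73.2, 101, 124 and 106 CPM, so that preleukemic_138 lay within the leukaemic range. In model 2 the values of 84.5, 109.5, 62.3 and 105 CPM and 71.3, 55.1 and 87.1 CPM overlapped. Chek2 (ENSMUSG00000029521, chr5:110839979-110874145), the kinase below ATM, had 82.7, 94.1 and 99.2 CPM in preleukaemic and 46.4, 50.9 and 63.3 CPM in leukaemic TgSpi1FA-/- cells (log2 fold change -0.78 ± 0.20, edgeR adjusted p = 0.0347). The call was lost whichever mouse was left out (edgeR adjusted p = 0.0529 to 0.117), without a filter, and with preleukemic_445 and preleukemic_479 counted as 1 library. The stages did not overlap, but the TgSpi1FA+/+ values of 61.5, 87.6, 105 and 89.8 CPM reached the leukaemic range at preleukemic_138. In model 2 Chek2 was at 57.5, 82.5, 79.6 and 81.6 CPM in preleukaemic and at 81.4, 103 and 112 CPM in leukaemic cells, where the lowest leukaemic library lay within the preleukaemic range. Their partner genes did not pass. Atm had 82.1 to 116 CPM in preleukaemic and 50.7 to 122 CPM in leukaemic TgSpi1FA-/- cells, with a log2 fold change of -0.35, and Atrip, which brings ATR to RPA, and Chek1, the kinase below ATR, had -0.24 and 0.03.

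Among the structure-selective nucleases, Ercc4 alone passed. Ercc4 (ENSMUSG00000022545, chr16:13109684-13150617), the catalytic subunit XPF and also a Fanconi anaemia gene, had 41.1, 40.5 and 35.2 CPM in preleukaemic and 22.03, 28.3 and 26.3 CPM in leukaemic TgSpi1FA-/- cells (log2 fold change -0.61 ± 0.17, edgeR adjusted p = 0.0414). Preleukaemic TgSpi1FA+/+ cells had 30.8, 32.9, 39.2 and 33.3 CPM, all above the leukaemic libraries. In model 2 the preleukaemic values were 19.1, 20.5, 14.8 and 29.7 CPM and the leukaemic ones 13.3, 15.4 and 15.2 CPM, which overlapped at preleukemic_812. The call was lost whichever mouse was left out (edgeR adjusted p = 0.0753 to 0.101), without a filter, with the compared groups alone, with preleukemic_445 and preleukemic_479 counted as 1 library, and by DESeq2, where the fold was below 1.5. Slx4, the scaffold to which XPF binds, had 62.02, 56.7, 70.4 and 55.9 CPM in preleukaemic TgSpi1FA+/+ cells, 79.3, 59.9 and 70.03 CPM in preleukaemic and 37.4, 52.5 and 54.7 CPM in leukaemic TgSpi1FA-/- cells. The leukaemic libraries were below the preleukaemic ones, but the log2 fold change of -0.53 ± 0.18 did not pass (edgeR adjusted p = 0.08). In model 2 Slx4 had 31.1, 37.3, 20.8 and 59.1 CPM before and 28.7, 24.01 and 24.5 CPM in leukaemic cells. Ercc1, Mus81, Eme1 and Fan1 had log2 fold changes from -0.36 (Fan1) to 0.42 (Eme1).

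None of the RPA genes passed in leukaemic TgSpi1FA-/- cells by edgeR or DESeq2. Rpa1, the large subunit, had 420.01, 382, 345 and 378 CPM in preleukaemic TgSpi1FA+/+ cells, 407, 357 and 337 CPM in preleukaemic and 356, 352 and 341 CPM in leukaemic TgSpi1FA-/- cells (log2 fold change -0.07 ± 0.11, edgeR adjusted p = 0.719). In model 2 it had 295, 305, 257 and 258 CPM before and 259.99, 344 and 305 CPM in leukaemic cells. Rpa2, the subunit phosphorylated after damage, had 126, 185, 134 and 183 CPM in preleukaemic TgSpi1FA+/+ cells, 119, 135 and 180.3 CPM in preleukaemic and 411, 152 and 149 CPM in leukaemic TgSpi1FA-/- cells. The high value was that of leukemic_26 alone, and the other leukaemic libraries lay within the preleukaemic range (log2 fold change 0.71 ± 0.39, edgeR adjusted p = 0.231). The genes around Rpa2, looked at after these values were seen, were high in the same mouse. Of 49 genes tested within 1 Mb, 47 were higher in leukemic_26 than in the mean of leukemic_28 and leukemic_39, with a median difference of 2.03 on the log2 scale, and Rpa2 differed by 1.45. In model 2 Rpa2 had 93.1, 107, 112 and 89.05 CPM in preleukaemic and 119.8, 127 and 114 CPM in leukaemic cells. Rpa3, the small subunit, had 35.00 to 48.3 CPM over the 10 libraries of model 1. In the second table of model 1 mice it ran from 39.4 CPM (preleukemic_451) to 110.1 CPM (leukemic_39). In model 2 Rpa3 had 72.2, 62.8, 76.4 and 42.6 CPM in preleukaemic and 125, 136 and 118 CPM in leukaemic cells, without overlap.

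Ube2t, the E2 enzyme that ubiquitinates FANCD2 with the core complex, did not pass by edgeR, but its leukaemic libraries lay above the preleukaemic ones in the tables of both models. In preleukaemic TgSpi1FA+/+ and TgSpi1FA-/- cells it had 31.8, 27.1, 22.7 and 27.2 CPM and 26.3, 31.5 and 21.1 CPM. In leukaemic TgSpi1FA-/- cells it had 34.9, 41.1 and 90.3 CPM, above all others, with leukemic_39 the highest, but in the second table leukemic_26 (27.97 CPM) lay below preleukemic_138 (37.7 CPM). The log2 fold change was 1.08 ± 0.35 with an adjusted p of 0.0672 by edgeR and of 0.0258 by DESeq2. In leukemic_39, 17 of the 20 genes tested within 1 Mb of Ube2t were also higher than in the mean of leukemic_26 and leukemic_28, with a median difference of 1.19 on the log2 scale against 1.24 for Ube2t. In model 2 Ube2t had 30.1, 36.2, 33.6 and 28.6 CPM in preleukaemic and 51.3, 60.2 and 52.7 CPM in leukaemic cells, without overlap, and the log2 fold change of 0.77 ± 0.18 had an adjusted p of 0.162 by edgeR and of 0.0436 by DESeq2.

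**Figure D3:**
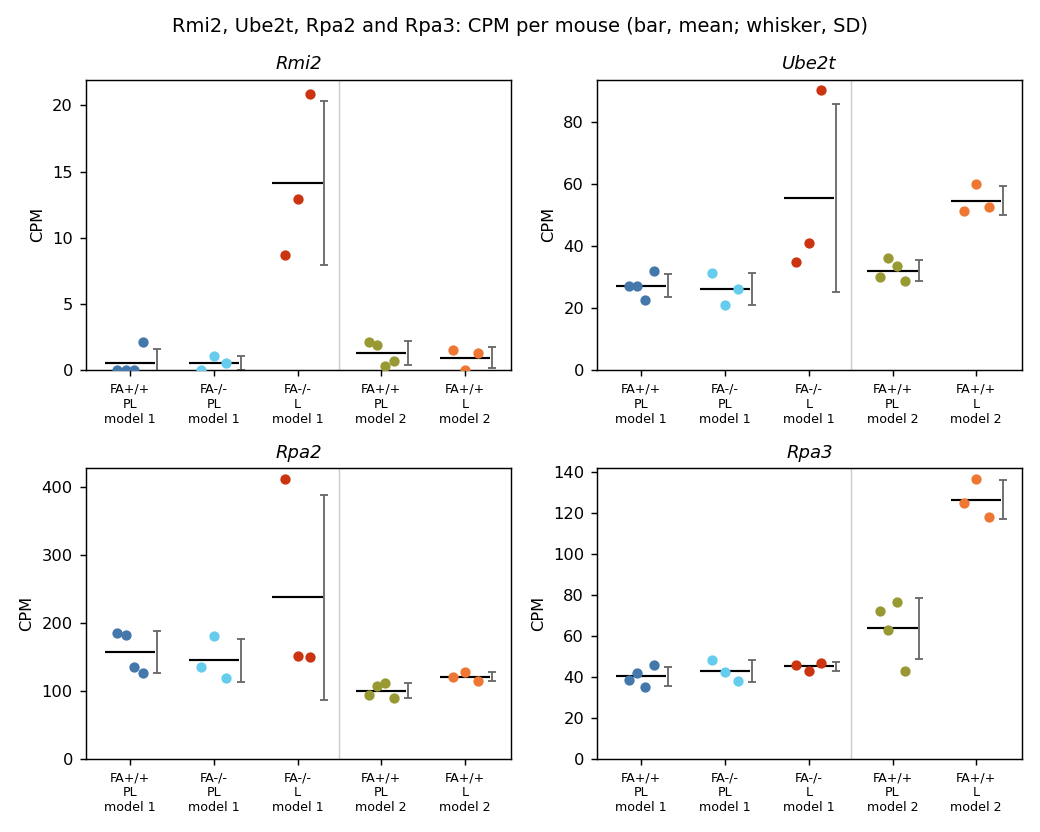
CPM of Rmi2, Ube2t, Rpa2 and Rpa3, with 1 point per mouse, the group mean as a bar and the SD as a whisker (PL, preleukaemic, L, leukaemic). Rmi2 reached 8.66 to 20.9 CPM only in the leukaemic TgSpi1FA-/- group among these 5 groups, Rpa2 reached 411 CPM in 1 of those 3 mice, and Rpa3 was highest in leukaemic cells of model 2.

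The paralogues Rad51b, Rad51c, Rad51d, Xrcc2 and Xrcc3 encode proteins that assist strand invasion. In leukaemic TgSpi1FA-/- cells 4 of the 5 had a log2 fold change below 0 and 0 passed by edgeR, and in model 2 all 5 were above 0, with a median of 0.65, and 0 passed. Rad51b (ENSMUSG00000059060, chr12:79297282-79814690) had 10.2, 8.39, 7.82 and 8.47 CPM in preleukaemic TgSpi1FA+/+ cells, 8.28, 9.22 and 13.98 CPM in preleukaemic and 6.41, 5.19 and 4.03 CPM in leukaemic TgSpi1FA-/- cells. In model 2 it had 12.2, 14.4, 10.1 and 9.77 CPM in preleukaemic and 15.1, 23.9 and 21.9 CPM in leukaemic cells. The leukaemic libraries were thus below all others in model 1 and above all others in model 2 (log2 fold changes -1.01 ± 0.31 and 0.80 ± 0.30, edgeR adjusted p = 0.0602 and 0.203). Rad51d, the highest paralogue in CPM per kb of exon, had 34.6, 39.4, 39.6 and 42.7 CPM in preleukaemic TgSpi1FA+/+ cells, 48.6, 32.4 and 34.3 CPM in preleukaemic and 29.6, 17.9 and 16.9 CPM in leukaemic TgSpi1FA-/- cells. In model 2 Rad51d had 20.6, 31.4, 27.97 and 28.8 CPM before and 25.5, 48.4 and 46.4 CPM in leukaemic cells. The stages did not overlap in model 1 and overlapped in model 2 (log2 fold changes -0.84 ± 0.25 and 0.56 ± 0.29, edgeR adjusted p = 0.0557 and 0.319). Xrcc2 was at 31.5 to 37.95 CPM in preleukaemic and 23.00 to 28.9 CPM in leukaemic TgSpi1FA-/- cells, and at 13.4 to 22.5 CPM and 32.7 to 42.4 CPM at the same stages in model 2. Xrcc3 had a log2 fold change of 0.04 in each model, and Rad51c had -0.22 in model 1 and 0.65 in model 2.

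**Figure D4:**
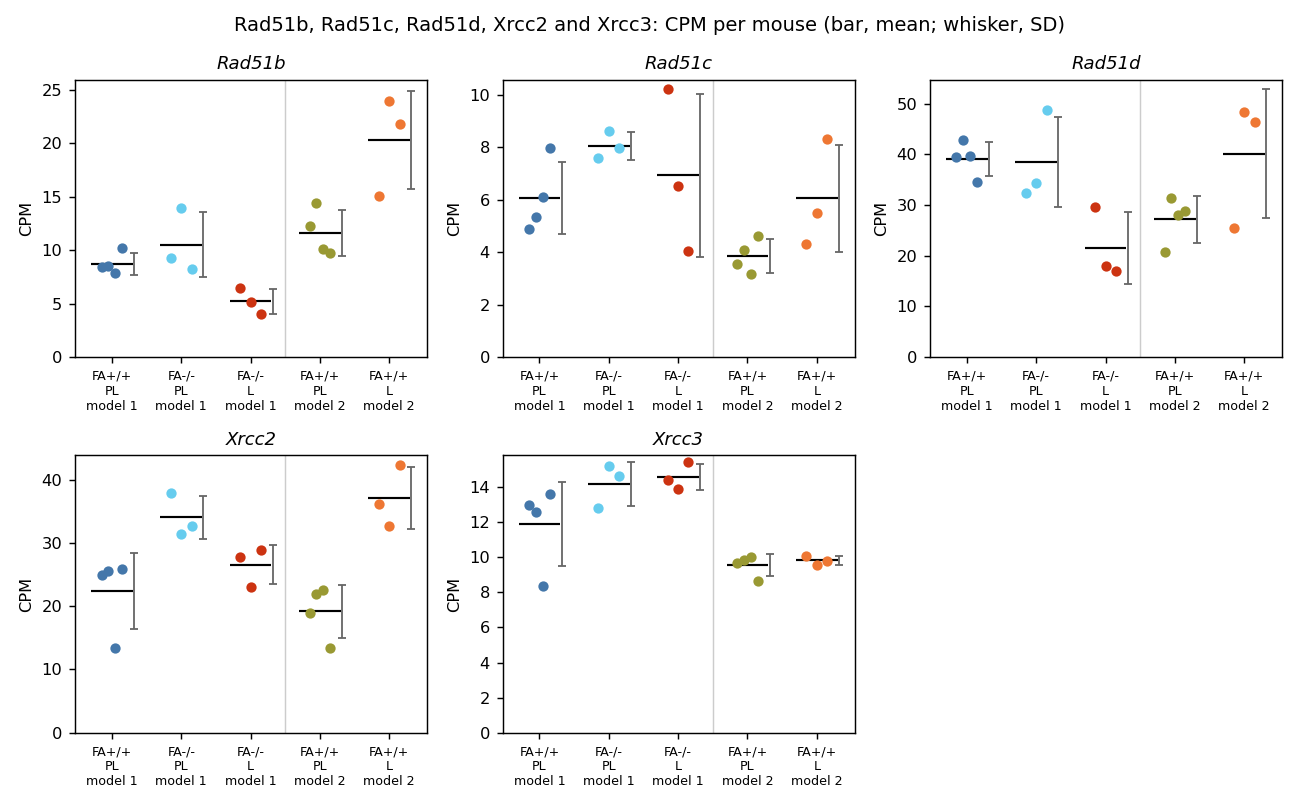
CPM of the 5 paralogues Rad51b, Rad51c, Rad51d, Xrcc2 and Xrcc3, with 1 point per mouse, the group mean as a bar and the SD as a whisker (PL, preleukaemic, L, leukaemic). The leukaemic points of Rad51b lie at 4.03 to 6.41 CPM in model 1 and at 15.1 to 23.9 CPM in model 2, on opposite sides of the preleukaemic points of their own model.

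The second comparison asked what loss of Fanca changed at the preleukaemic stage. None of the 42 genes passed by edgeR, where 1 gene of 13393 did (0.00747%), and none passed by DESeq2, against 0.994% of all genes. At an unadjusted p under 0.05, 2 genes were higher in TgSpi1FA-/- cells, Rad50 (log2 fold change 0.24 ± 0.10, edgeR adjusted p = 0.557) and Xrcc2 (0.60 ± 0.24, edgeR adjusted p = 0.549), when 3.52% of all genes were. Xrcc2 had 25.8, 24.9, 13.4 and 25.5 CPM in TgSpi1FA+/+ and 32.7, 37.95 and 31.5 CPM in TgSpi1FA-/- cells, where preleukemic_451 was low among the former. The groups did not overlap for 4 genes, all higher in TgSpi1FA-/- cells (Xrcc2, Rad52, Rad50 and Helq), against 4.26% of all genes on that side. The median log2 fold change of the 42 genes was 0.10, and 29 were above 0. It was 0.21 without preleukemic_77. The 9 genes that were lower in leukaemic TgSpi1FA-/- cells had log2 fold changes from 0.04 (Wrn) to 0.52 (Rad54l) here, and both comparisons share the preleukaemic TgSpi1FA-/- libraries.

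Leukaemic TgSpi1FA-/- cells were also set against preleukaemic TgSpi1FA+/+ cells, a comparison added after the others and sharing its libraries with both. Wrn (log2 fold change -1.50 ± 0.24, edgeR adjusted p = 0.0152) and Brip1 (-0.95 ± 0.16, edgeR adjusted p = 0.0157) were lower, and 3.46% of all genes were. DESeq2 gave 6 lower genes and 1 higher gene, against 8.72% of all genes in either direction. In the second deposited table of the same 7 mice, none of the 42 genes passed (edgeR, the one tool run on it), when 1.59% of 16799 genes did, and 10 had an unadjusted p under 0.05 against 18.6% of all genes. The leukaemic libraries lay below the preleukaemic ones there for Brip1, Rad50, Ercc4 and Chek2 and overlapped them for the other 5 of the 9 genes. The share of all genes without overlap was not computed there. The 9 genes had been called lower in these same leukaemic mice, so this is not independent of the first comparison. Its log2 fold changes were -1.12 ± 0.47 for Wrn, -0.85 ± 0.29 for Brip1 and 5.34 ± 1.35 for Rmi2.

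The third comparison asked how leukaemic and preleukaemic TgSpi1FA+/+ cells of model 2 differed. None of the 42 genes passed by edgeR, nor did any of the 12970 genes tested (0.0%), and the smallest adjusted p among the 42 was 0.162. At an unadjusted p under 0.05, 2 genes were lower (Wrn and Mre11a) and 4 higher (Rpa3, Xrcc2, Rad51b and Ube2t), when 11.4% and 8.59% of all genes were. DESeq2 gave 3 genes, with Wrn lower and Rpa3 and Ube2t higher, against 2.02% of all genes. Rpa3 had a log2 fold change of 0.99 ± 0.22 (adjusted p of 0.162 by edgeR and of 0.049 by DESeq2), and Mre11a had -0.44 ± 0.17 (edgeR adjusted p = 0.217). The stages did not overlap for 2 genes on the lower side and 6 on the higher side, against 10.4% and 9.65% of all genes. The median log2 fold change was 0.08, with 23 of the 42 genes above 0.

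The changes of both models share no library and were compared as an interaction. Their difference passed for 4 of the 42 genes, all more negative in TgSpi1FA-/- cells, which is 9.52%, while 1.85% of 14597 genes passed in that direction. These were Rad51b (difference of log2 fold changes -1.83 ± 0.42, edgeR adjusted p = 0.0345), Brip1 (-1.45 ± 0.28, edgeR adjusted p = 0.0285), Nbn (-1.27 ± 0.26, edgeR adjusted p = 0.0292) and Chek2 (-1.19 ± 0.29, edgeR adjusted p = 0.039). Of the 13 fits that left out a mouse, Brip1 passed in 7, Nbn in 6, Rad51b in 4 and Chek2 in 3. For each of them the log2 fold change was below 0 in model 1 and above 0 in model 2. Wrn, whose leukaemic libraries lay below the preleukaemic ones in both models, differed by -0.54 ± 0.32 (edgeR adjusted p = 0.298). DESeq2 gave 8 negative genes and 1 positive gene (Exo1), against 2.97% and 6.34% of all genes. No gene passed without preleukemic_77, preleukemic_224, preleukemic_40, leukemic_28, leukemic_39 or leukemic_921, 1 passed without leukemic_601 (Brip1), 2 passed without leukemic_606 or preleukemic_633 (Brip1 and Nbn) and 7 without preleukemic_812.

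**Figure D5:**
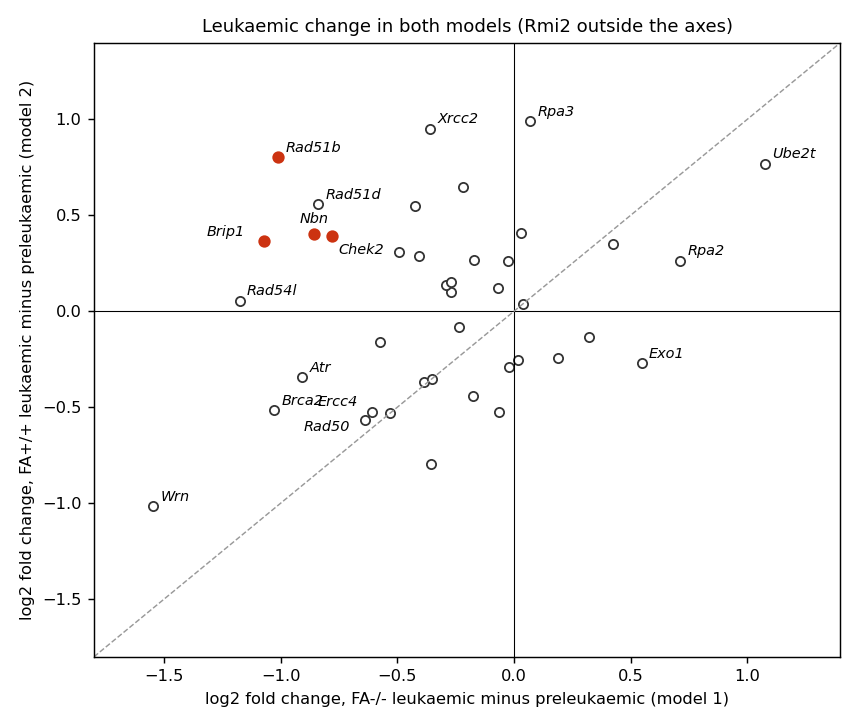
Log2 fold change between leukaemic and preleukaemic cells (edgeR) of each gene in model 1 (TgSpi1FA-/-, x axis) and in model 2 (TgSpi1FA+/+, y axis), with the dashed line marking equal changes and Rmi2 (4.77 and -0.44) outside the axes. The 4 genes whose difference passed (red) lie at the upper left, and Wrn lies at the lower left, below 0 in both models.

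Other genes of recombination gave 3 lower and 1 higher of 21 tested in leukaemic TgSpi1FA-/- cells, when 6.49% and 6.82% of all genes were. Helb, which restrains resection, fell by 1.07 on the log2 scale (edgeR adjusted p = 0.00556), Mcm9, a helicase acting after strand invasion, by 0.82 (adjusted p = 0.0166) and Swsap1, a partner of the paralogues, by 1.25 (adjusted p = 0.0428). Sfr1, which acts in strand exchange, was higher by 0.89 (adjusted p = 0.00486), with 185 to 218 CPM against 102 to 118 CPM. Helb and Sfr1 passed in all 6 fits that left out a mouse, Mcm9 in 3 and Swsap1 in 0 (edgeR adjusted p up to 0.133). Of 25 other checkpoint and BRCA1-complex genes 0 passed by edgeR or DESeq2, and 7 had an unadjusted p under 0.05 by edgeR, when 16.1% of all genes did on the lower and 16.3% on the higher side. In the comparison of both genotypes and in model 2, 0 genes of either list passed by either tool. An unadjusted p under 0.05 by edgeR was found for 1 of 21 and 2 of 25 genes in the former and for 4 of each list in model 2. Of all genes, 3.52% were higher at that p in the former, and 11.4% were lower and 8.59% higher in model 2. In the interaction Helb, Rad51ap1, Parpbp and Swi5 of the first list and Fam175a of the second had negative differences that passed, from -1.43 (Rad51ap1) to -0.84 (Swi5), against 1.85% of all genes. Of the 13 fits that left out a mouse, Rad51ap1 passed in 6, Helb in 5, Parpbp in 4, Swi5 in 3 and Fam175a in 1.

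Recombination genes are mostly expressed in dividing cells, and cell type and growth markers were therefore read beside them. Of all genes tested, 6.49% were lower and 6.82% higher in leukaemic than in preleukaemic TgSpi1FA-/- cells by edgeR. Of 24 proliferation genes, 1 was lower in the leukaemic cells (Rrm2, log2 fold change -1.11, edgeR adjusted p = 0.0415). Their summed level was 5955 to 8087 CPM there and 7587 to 7896 CPM in the preleukaemic TgSpi1FA-/- libraries. Of 13 erythroid markers tested, 3 were lower (Ermap, Klf1 and Hbb-bt), and the list summed to 2634 to 5158 CPM against 6859 to 7079 CPM. Of 6 megakaryocyte markers tested 2 were higher (Vwf and Itga2b), and the list summed to 174 to 276 CPM against 45.9 to 60.2 CPM. Preleukaemic TgSpi1FA+/+ libraries of model 1 had 60.9 to 204.9 CPM for this list, which overlapped the leukaemic range. Vwf was low, at 1.1 to 3.1 CPM in the leukaemic libraries. Lck was the 1 T and NK cell marker tested and was higher, with that list at 4.01 to 5.97 CPM against 0.819 to 1.49 CPM. Kdr was higher of 2 endothelial and stromal markers tested, with that list at 12.7 to 50.1 CPM against 1.58 to 8.08 CPM. Mast cell markers summed to 0.330 to 11.3 CPM against 2.36 to 32.04 CPM and myeloid markers to 2.28 to 3.81 CPM against 1.97 to 3.78 CPM, without a gene that passed by either tool. In model 2, erythroid markers summed to 3711 to 6335 CPM in leukaemic and 6088 to 11030 CPM in preleukaemic cells, with a median log2 fold change of -1.01. Of 13 tested, 0 passed by edgeR and 5 had an unadjusted p under 0.05, when 11.4% of all genes were lower and 8.59% higher at that p. By DESeq2 4 were lower, against 2.02% of all genes in either direction. Mast cell markers summed there to 97.8 to 155 CPM in leukaemic and 3.73 to 59.1 CPM in preleukaemic cells. Of 5 tested, 0 passed by edgeR, 3 had an unadjusted p under 0.05 by edgeR, and 2 were higher by DESeq2. DESeq2 also gave 1 megakaryocyte marker and 1 endothelial and stromal marker as lower in model 2. At most 3 counts in every library of model 1 were found for 6 of 10 myeloid, 3 of 6 B cell and 4 of 8 T and NK cell markers. The part of these cell types and of proliferation in the changes of the recombination genes was not tested.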

How the data were processed

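Poly(A) RNA of blasts was sequenced with a stranded kit. The authors deposited raw read counts per Ensembl gene, which were checked to be whole numbers. The submitters' processing notes name bcl2fastq 2.17.1.14, STAR 2.5.3a, HTSeq 0.6.1p1 and the builds mm10 and GRCm38. The strand setting of the counting was not given in the sources used here, so that genes overlapping on opposite strands cannot be told apart. The columns of model 1, of model 2 and of a second table with 7 mice of model 1 were mapped by mouse number. A deposited copy of the model 2 table was not used.

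From the counts, CPM and tests were computed with edgeR 4.0.16 (R 4.3.3; filterByExpr, TMM, glmQLFit and glmQLFTest, Benjamini-Hochberg adjustment over all genes tested). The 3 groups of model 1 were fitted together, the 2 groups of model 2 on their own, and the interaction over all 17 libraries. A gene passed with an adjusted p below 0.05 if its fold change was 1.5 or more. SE is the log2 fold change divided by the square root of F. The scripts were tested on simulated data. Exon lengths and positions came from GENCODE M21 (GRCm38), which held 99.804% and 99.866% of the identifiers.

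The genes, their roles and all lists were chosen with earlier results of these data known. Values per library are given for each gene that passed in a planned comparison or the interaction and, in each role, for the gene with the highest mean CPM and that with the largest change in leukaemic TgSpi1FA-/- cells. Of the other lists, the genes that passed are named. Other genes named were chosen after their values were seen. Alternatives were DESeq2 1.42.0 (Wald test), its size factors, no filter, 1 CPM required in 3 libraries, the adjusted p alone, the compared groups alone, preleukemic_445 and preleukemic_479 summed, and leaving out each mouse.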

Additional observations from a re-analysis of the deposited data

Results flagged for a closer look

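Of 84 sets of 4 preleukaemic libraries (42 genes in each model), 10 held a library far from the other 3. Chance gives about 1 in 20 where the libraries of a set are independent, which does not hold here, since 8 of the 10 fell in the group with the close libraries preleukemic_445 and preleukemic_479, and all 42 genes share the same libraries. In preleukaemic TgSpi1FA+/+ cells of model 1, preleukemic_138 was high for Brca1 (186 CPM), Rad50 (161 CPM), Nbn (138.03 CPM), Top3a (40.5 CPM) and Rmi2 (2.13 CPM, with the others at 0). In the same group preleukemic_451 was high for Atm (126 CPM) and Palb2 (39.5 CPM) and low for Xrcc2 (13.4 CPM). In preleukaemic cells of model 2, preleukemic_812 was low for Recql (64.2 CPM) and preleukemic_633 for Chek2 (57.5 CPM).

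The leukaemic change differed between the models for Rad51b (-1.83), Brip1 (-1.45), Nbn (-1.27) and Chek2 (-1.19), given as the log2 fold change in TgSpi1FA-/- cells minus that in model 2, by the interaction test of edgeR.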

How the results depend on the processing

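In leukaemic against preleukaemic TgSpi1FA-/- cells, 9 genes passed. The count was 2 to 6 when 1 mouse was left out, and 6 to 11 under the other settings. All 9 kept a log2 fold change below 0 under every setting run. Of these 9, 8 passed with DESeq2's size factors, 8 with its Wald test, 7 with no filter, 6 with the compared groups alone and 6 with preleukemic_445 and preleukemic_479 summed. The median log2 fold change of the 42 genes was -0.31 to -0.20 when 1 mouse was left out. For both genotypes at the preleukaemic stage, 0 genes passed under all settings, and the median was 0.053 to 0.21 with 1 mouse left out, the highest without preleukemic_77. In model 2, 0 passed by edgeR under all settings and 3 by DESeq2, and the median was 0.01 to 0.16 with 1 mouse left out. For the interaction, 4 genes passed, 9 by DESeq2, 2 without a filter, 7 with a filter of 1 CPM in 3 libraries, and 0 to 7 with 1 mouse left out. In leukaemic TgSpi1FA-/- against preleukaemic TgSpi1FA+/+ cells, 2 passed, 7 by DESeq2 and 0 in the second table. The cause of these differences was not tested. DESeq2 tested more genes, also those below the filter on low counts that all 42 genes passed. Its shares of all genes are therefore over a wider set than those of edgeR. The median of all its log2 fold changes was 0.15 in the first comparison and 0.18 in the interaction, against -0.00 and 0.05 by edgeR. No call was reversed under any setting run. No paired analysis was possible because the labels number mice singly, so that no number is shared between groups. With 3 or 4 mice per group, calls depended on single libraries. Rmi2, at 0 counts in 4 preleukaemic libraries, had a log2 fold change of 4.20 to 5.76 between the stages of TgSpi1FA-/- cells with 1 mouse left out.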
